A study of Rattus norvegicus with 2 samples.

Results

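The major histocompatibility complex (MHC) class II genes were read in the epithelium of the proximal jejunum, the upper part of the small intestine. The set holds 8 of the 32883 genes in the deposited matrices, found by their symbols: Cd74, RT1-Da, RT1-Db1, RT1-Ba, RT1-Bb, RT1-DMa, RT1-DMb and Ciita. Their identifiers in the files are ENSRNOG00000018735, ENSRNOG00000032844, ENSRNOG00000033215, ENSRNOG00000000451, ENSRNOG00000032708, ENSRNOG00000047864, ENSRNOG00000049491 and ENSRNOG00000002659, in the same order. RT1 is the name of the MHC of the rat, and in RefSeq its D, B and DM genes neighbour each other on chromosome 20, while Cd74 lies on chromosome 18 and Ciita on chromosome 10. The samples were 2 adult male Sprague-Dawley rats of 6 to 8 weeks and 180 to 200 g, an outbred stock without an introduced allele or a treatment, both fasted overnight, and each gave 1 library of single cells from epithelium released with EDTA and dispase. Both rats form 1 group, so the comparisons are between cell classes within and across the rats, and no other region or condition was measured. Amplified copies of a transcript share its unique molecular identifier (UMI) and count once, and levels are given as UMIs per 1000000 UMIs of a cell class (CPM). The 8 genes had 105530 UMIs in all barcodes of rat 1 and 84389 in rat 2. In the cells retained, 7 of the 8 had a UMI in rat 1 and 6 in rat 2.

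MHC class II molecules carry peptides from endocytosed proteins to the cell surface, where CD4+ T cells read them. Dendritic cells, macrophages and B cells make them throughout, while the absorptive enterocytes of the small intestine are known as a non-professional source of class II, above all on the villus. Each molecule is a pair of an alpha and a beta chain: RT1-Da with RT1-Db1 (the D molecule), and RT1-Ba with RT1-Bb (the B molecule). Cd74, the invariant chain, fills the groove of new molecules until they reach the endosome, the DM pair (RT1-DMa and RT1-DMb) then exchanges its remnant for peptide, and the transactivator Ciita switches the whole set on from shared promoter boxes.

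Those boxes are shown for the members with an entry in the RefSeq promoter table (GRCr8, 250 bases before to 50 bases after each gene's start), because they are what Ciita's partners read. The table held 6 of the 8 members, and RT1-DMb and Ciita had no entry. An X-type motif (G, any 2 bases, AC, any 1 base, then GATG) and a Y-type motif (GATTGG) were searched on both strands, as was CCAAT, which overlaps GATTGG where the latter is read on the opposite strand. Capitals mark the matches, and each line runs 5′ to 3′ along the gene.
Cd74 (chr18:56526977-56527033, + strand): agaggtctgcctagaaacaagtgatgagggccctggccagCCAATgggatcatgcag
RT1-Da (chr20:4515321-4515382, + strand): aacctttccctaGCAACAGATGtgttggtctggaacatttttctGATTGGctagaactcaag
RT1-Db1 (chr20:4560226-4560286, - strand): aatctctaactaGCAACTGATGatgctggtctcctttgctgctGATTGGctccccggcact
RT1-Ba (chr20:4576973-4577030, + strand): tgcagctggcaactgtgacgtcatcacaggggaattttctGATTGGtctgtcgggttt
RT1-Bb (chr20:4604163-4604223, - strand): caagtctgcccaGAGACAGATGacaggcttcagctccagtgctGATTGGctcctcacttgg
RT1-DMa (chr20:4712383-4712444, - strand): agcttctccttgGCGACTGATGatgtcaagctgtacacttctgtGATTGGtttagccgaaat

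RT1-Da, RT1-Db1, RT1-Bb and RT1-DMa held the X-type motif followed on the same strand by GATTGG, with 21 bases between them in RT1-Db1 and RT1-Bb and 22 in RT1-Da and RT1-DMa. This arrangement, with 10 to 30 bases allowed between the motifs, occurred in 7 of the 33469 promoters in the table (0.021%), 4 of them members. Alone, the X-type motif was found in 2.84% of all promoters, GATTGG in 14.8% and CCAAT in 37.5%. RT1-Ba held GATTGG without a match to the X-type letters, and Cd74 held CCAAT without a match to either of the other motifs. These coordinates are not those of the build used for counting (rn6), and a match describes the letters in the window and not binding.

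The retained cells had more than 5000 UMIs, at most 40% mitochondrial UMIs and 200 to 5800 genes. This left 5988 of 12033 barcodes of rat 1 and 2230 of 8252 barcodes of rat 2, with a median of 12200 and 13962 UMIs per cell. Of the barcode sequences, 28 occurred in both libraries, 4 of them among retained cells. Cells were clustered without the class II genes and without the other presentation genes described here, and clusters were named from fixed markers. Enterocytes were ranked by a villus score of Alpi, Apoa1, Apoa4, Ada, Enpp3, Nt5e and Slc28a2, which rise toward the villus tip, and split within each rat into 3 groups of equal size, named early, middle and mature. Rat 1 gave 1196, 1196 and 1195 cells of these groups and rat 2 gave 366, 365 and 365. These groups are ranges of a score and not types: 548 of 3587 enterocytes of rat 1 and 116 of 1096 of rat 2 lay within 0.1 standard deviations of a cut. The crypt class (stem-like and cycling cells) held 1147 and 38 cells. One of its clusters (176 and 9 cells) was led by Paneth cell genes such as Defa24 and Lyz2 beside the stem marker Olfm4. It had the highest mean stem marker level of the crypt clusters (1.07, log scale). Another (146 and 5) had no stem or cycling marker among its leading genes. Results against crypt cells were also computed with the remaining 825 and 24 cells. Their clusters were led by cycling markers such as Top2a, Pcna and Mcm6, without a stem marker, and had stem marker levels of 0.44 and 0.39. The goblet lineage, in which goblet and Paneth transcripts were not separated either, held 346 and 153 cells, enteroendocrine cells (EECs) 21 and 11, tuft cells 16 and 123, and CFTR high expressers (CHEs) 8 and 76. Hemoglobin-rich erythroid cells (24 and 239), which should lack class II, serve as a reference for free RNA. They are not a plain background, since those of rat 1 carried 19023.5 CPM of Defa24, against 1244 CPM in crypt cells of that rat. Leukocyte barcodes of rat 1 nearly all carried epithelial UMIs, so T cells (170) and non-T leukocytes (60) come from rat 2 alone. All intervals below are exact at 95% and cover counting error only.

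Cd74, the invariant chain, rose steeply from crypt to villus in both rats. Its level was 28.4 CPM in rat 1 and 20.5 CPM in rat 2 in crypt cells, and 65.6 and 145 CPM in early enterocytes. It was 994 and 1024 CPM in middle enterocytes, and 2213 and 845 CPM in mature enterocytes. The rats lay close together in the middle group and apart in the mature group, where rat 1 was higher. The groups are ranks within a rat and cover different scores: the mature group began at a villus score of 2.03 in rat 1 and 3.12 in rat 2. The ratio of mature to middle enterocytes was 2.23 (2.18 to 2.27) in rat 1 and 0.825 (0.797 to 0.855) in rat 2, so the intervals lie on opposite sides of equality. Against early enterocytes the mature level was 33.7 times as high (31.8 to 35.8) in rat 1 and 5.83 times (5.51 to 6.17) in rat 2. Over the 9 classes measured in both rats, the mean level fell in the order mature, middle, CHEs, early, tuft, erythroid, EECs, goblet lineage and crypt, and the ranges of the rats overlapped between mature and middle enterocytes, between CHEs and early enterocytes, and between all neighbours from tuft cells down.

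**Figure D1:**
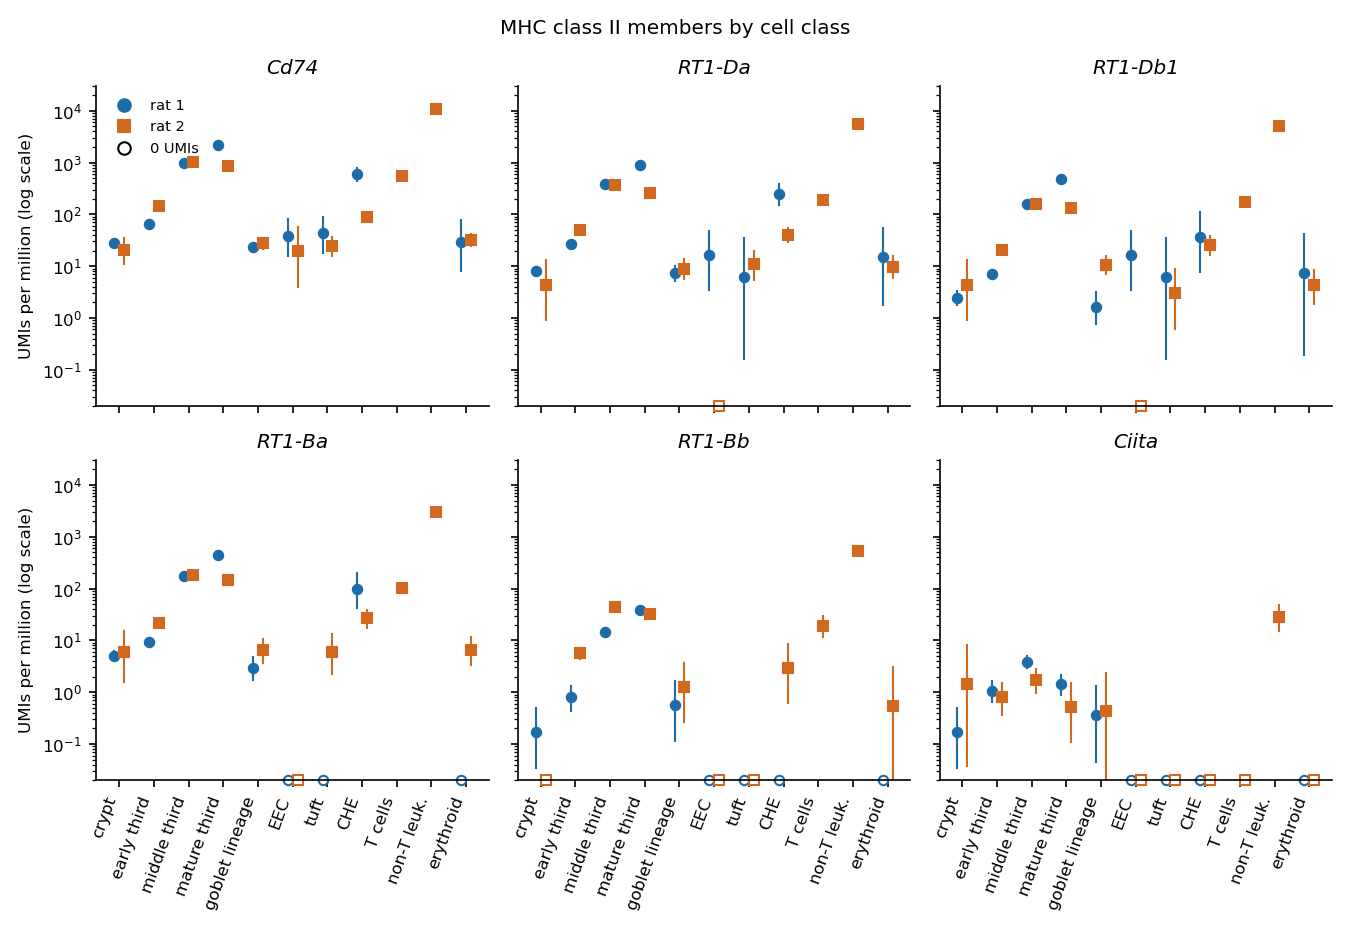
Levels of the class II members by cell class, in CPM on a log axis, with 1 point per rat and bars for the exact 95% Poisson interval (counting error only). An open marker at the foot of the axis is a class with 0 UMIs. The D and B chains follow Cd74 from class to class, at 994 and 1024 CPM for Cd74 in middle enterocytes against 28.4 and 20.5 CPM in crypt cells.

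The chains of the D molecule followed the same course at lower counts. RT1-Da, the alpha chain, was at 8.11 CPM (rat 1) and 4.40 CPM (rat 2) in crypt cells, 26.2 and 50.4 CPM in early, 380.3 and 373 CPM in middle and 878 and 261 CPM in mature enterocytes. RT1-Db1, the beta chain, was at 2.48 and 4.40 CPM in crypt cells, 7.08 and 20.8 CPM in early, 156 and 161 CPM in middle and 480.4 and 135 CPM in mature enterocytes. For both chains all enterocyte levels lay above those of the crypt cells, middle and mature levels lay above early ones, and the middle and mature ranges overlapped. RT1-Db1 has a close relative, RT1-Db2, so that UMIs could be split between them. RT1-Db2 was at 0 to 0.407 CPM in all epithelial classes.

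The B molecule was present as both chains. RT1-Ba, its alpha chain, was at 5.01 CPM (rat 1) and 5.87 CPM (rat 2) in crypt cells, 9.46 and 21.3 CPM in early, 176 and 179 CPM in middle and 454 and 148 CPM in mature enterocytes. RT1-Bb, its beta chain, was at 0.793 and 5.67 CPM in early, 14.2 and 43.8 CPM in middle and 38.3 and 33.0 CPM in mature enterocytes. Crypt cells held 3 UMIs of RT1-Bb in rat 1 and 0 in rat 2, which allows up to 4.40 CPM there. In early and middle enterocytes RT1-Bb was higher in rat 2 than in rat 1, the opposite of its order in mature enterocytes.

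The DM pair was all but missing from the counts. RT1-DMa, the alpha chain, had 1 UMI in crypt cells, 2 in early and 2 in mature enterocytes of rat 1, and 0 UMIs in every class of rat 2. RT1-DMb, the beta chain, had 0 UMIs in every class of both rats, which allows up to 0.204 CPM in mature enterocytes of rat 1 and 0.526 CPM in the same class of rat 2. In the non-T leukocytes of rat 2, which held 4873 UMIs of Cd74, both DM genes were also at 0, which allows up to 6.54 CPM. No class held more than 2 UMIs of either gene, so these libraries did not show that their transcripts could be counted well. Neither passed the filter on low counts, so 6 of the 8 members were tested.

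Ciita, the transactivator, was close to the limit of detection and ran a different course. It had 3 UMIs in rat 1 and 1 UMI in rat 2 in crypt cells, 19 and 9 in early, 63 and 15 in middle and 21 and 3 in mature enterocytes. As levels these were 0.169 and 1.47 CPM in crypt cells, 1.08 and 0.811 CPM in early, 3.85 and 1.69 CPM in middle and 1.43 and 0.526 CPM in mature enterocytes. The middle group was the highest in both rats, and mature enterocytes, which had the most Cd74 in rat 1, were back near the early level. The ratio of middle to early was 3.58 (2.11 to 6.33) in rat 1 and 2.09 (0.857 to 5.42) in rat 2, and that of mature to middle was 0.370 (0.215 to 0.615) and 0.310 (0.0576 to 1.10), so the fall was larger than counting error in rat 1 only. After each cell was thinned to 5000 UMIs, 33 of 1196 middle enterocytes of rat 1 (2.76%) and 2 of 365 of rat 2 (0.548%) held a Ciita UMI, with 0 of 24 and 0 of 239 erythroid cells. Goblet lineage cells had 2 UMIs and 1 UMI, and EECs, tuft cells, CHEs, T cells and erythroid cells had 0.

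Whether maturity carries these differences beyond the spread between rats was tested on UMI sums per rat and class with edgeR's quasi-likelihood test, adjusted over all 11112 genes tested. Between mature and early enterocytes the log2 fold change was 6.06 in rat 1 and 3.54 in rat 2 for RT1-Ba and 6.54 and 3.45 for RT1-Db1. Fitted, RT1-Ba rose by 4.79 (SE 0.92, edgeR adjusted p = 0.048) and RT1-Db1 by 4.94 (SE 0.97, edgeR adjusted p = 0.048). Cd74 (5.60 and 3.31, fitted 4.38 with SE 0.92), RT1-Da (5.58 and 3.13, fitted 4.39 with SE 0.92) and RT1-Bb (5.54 and 3.23, fitted 4.05 with SE 0.90) had changes as large, with edgeR adjusted p = 0.058, 0.058 and 0.075. For Ciita the change was 0.74 and 0.11, fitted 0.67 (SE 0.88, edgeR adjusted p = 0.73). Thus 2 of the 6 members tested were called, both higher, where 0.252% of all genes were called in either direction (28 genes, and 1905 at an unadjusted p under 0.05), 0.189% higher and 0.0630% lower. The median change was 4.39 over the 6 members and -0.03 over all genes.

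This call depended on how the rats were treated in the model. With the rat as a block, 2029 genes and 5 of the 6 members were called, Cd74 at 4.31 with edgeR adjusted p = 0.000979, RT1-Da at 4.28 with edgeR adjusted p = 0.000641 and RT1-Bb at 4.62 with edgeR adjusted p = 5.41e-05, while Ciita stayed at edgeR adjusted p = 0.588. When libraries were scaled by their totals, 0 genes and 0 members were called by edgeR (2514 genes and 5 members at an unadjusted p under 0.05), where 75% of the calls had been higher with the trimmed mean scaling (TMM), and the median of all genes moved by -0.61, from -0.03 to -0.65.

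**Figure D2:**
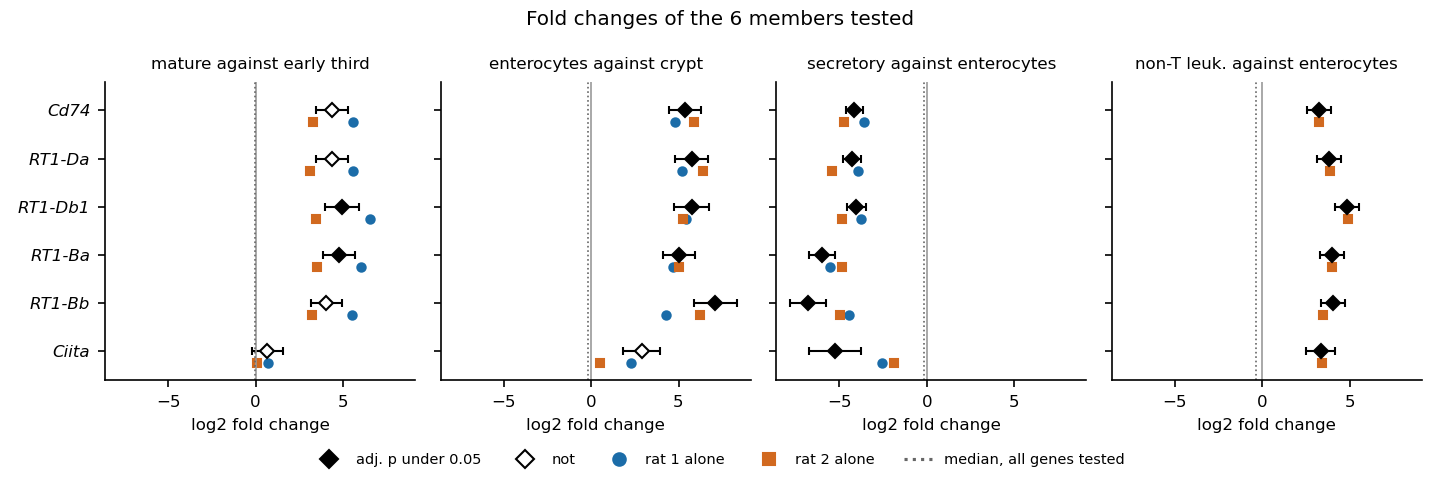
Log2 fold changes of the tested members in the comparisons of cell classes, with the fitted value and its standard error beside the value of each rat. Mature against early enterocytes, 5 members lay between 4.05 and 4.94 and Ciita at 0.67, and against crypt cells all 6 were above 0.

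Against crypt cells the mean of the enterocyte groups was higher for all chains. Cd74 differed by 4.80 in rat 1 and 5.91 in rat 2 on the log2 scale, fitted 5.36 (SE 0.93, edgeR adjusted p = 0.000528), and RT1-Da by 5.21 and 6.41, fitted 5.75 (SE 0.96, edgeR adjusted p = 0.000405). RT1-Db1 was fitted at 5.75 (edgeR adjusted p = 0.000598), RT1-Ba at 5.03 (edgeR adjusted p = 0.000824) and RT1-Bb at 7.12 (edgeR adjusted p = 0.000658), the last against a class with 3 and 0 UMIs. Ciita was fitted at 2.89 (SE 1.08, edgeR adjusted p = 0.053), with 2.31 in rat 1 and 0.48 in rat 2, and passed the threshold with the rat as a block (3.24, edgeR adjusted p = 0.0073). So 5 of 6 members were called higher, where 37.9% of all genes were called in either direction and 14.7% were called higher. The median over the members was 5.56, against -0.17 over all genes. Against the 825 and 24 crypt cells of the clusters led by cycling markers, 5 members were again called and their median was 5.43. These cells had 28.7 and 22.1 CPM of Cd74 and leave out the cluster with the stem marker Olfm4. Under scaling by library totals the median of all genes moved by -0.91 and the higher share of calls from 38.9% to 15.1%, and the members' median was 4.65.

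Along a finer ranking of the enterocytes by villus score, in deciles, the chains rose over a narrow stretch and then fell. In rat 1 the summed level of the members was 29.8 CPM in decile 1, 43.0 and 158 CPM in deciles 2 and 3, 1171 CPM in decile 5, 4496 CPM in decile 9 and 3639.6 CPM in decile 10. In rat 2 it was 21.1 CPM in decile 1, 147 CPM in decile 2, 1865 CPM in decile 5, 2179 CPM in decile 6 and 869 CPM in decile 10. Deciles rank the cells of each rat over its own range of scores. In bins of equal score both rats were highest between 2.5 and 3.0, at 4279 and 2092 CPM. Rat 1 then fell to 3317 CPM between 3.0 and 3.5 and 1864 CPM between 3.5 and 4.0 (45 cells), and rat 2 to 1761 and 1426 CPM (205 cells in the latter), which is 0.436 and 0.681 of the top bin. The later peak of rat 1 in its ranking was thus not a later peak by score. Cd74, RT1-Da, RT1-Db1 and RT1-Ba peaked in decile 9 of rat 1, at 2414, 983, 545 and 513 CPM, and RT1-Bb in decile 8 at 44.0 CPM. In rat 2, Cd74, RT1-Da and RT1-Ba peaked in decile 6, at 1265, 445 and 216 CPM, and RT1-Db1 and RT1-Bb in decile 7, at 200 and 60.3 CPM. From the peak to decile 10, these chains kept a ratio of 0.718 to 0.838 in rat 1 and of 0.288 to 0.439 in rat 2.

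Ciita peaked earlier than the chains in rat 1. It reached 4.93 CPM in decile 6 of rat 1 (24 UMIs), 3 deciles before Cd74, and had 0 UMIs in decile 10, where 8025 UMIs of Cd74 were counted. In rat 2 it was highest in decile 5 at 2.10 CPM, which rests on 6 UMIs, with 6 and 5 UMIs in the deciles beside it and 0 to 1 in each of the last 4, too few to order it against the chains there. The height of the level differed between the rats at the same score, by the largest factors in the lower bins. Between 1.0 and 1.5 the members were at 224 CPM in rat 1 but 21.3 CPM in rat 2. They were at 1658 and 131 CPM between 1.5 and 2.0, and at 4186 and 1138 CPM between 2.0 and 2.5. The median share of mitochondrial UMIs fell from 14.2% to 9.55% from decile 1 to decile 10 of rat 1, and in rat 2 it was 23.4% in decile 1, 31.0% in decile 8 and 26.9% in decile 10. Depth changed along the ranking too. The median cell held 11898 UMIs in decile 1 and 9943 in decile 10 of rat 1, and 30250, 23927 and 14280 in deciles 1, 6 and 10 of rat 2. The part of the mitochondrial share and of depth in the fall of the chains or the difference between the rats was not tested. Rat, library and Cell Ranger version (3.1.0 for rat 1, 5.0.1 for rat 2) cannot be told apart.

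The share of cells with class II transcripts and the amount per cell both rose from early to middle enterocytes. From middle to mature enterocytes both rose in rat 1 and fell in rat 2. They are not separate results, since a higher level alone raises the share of cells with a UMI. With each cell thinned to 5000 UMIs, at least 1 member UMI was seen in 18.2% of crypt cells (16.0 to 20.6) of rat 1 and 13.2% of rat 2, 24.5% and 24.04% of early, 76.8% and 84.7% of middle and 95.8% (94.5 to 96.9) and 74.8% (70.0 to 79.2) of mature enterocytes. Erythroid cells had 20.8% (7.13 to 42.2) and 17.2% (12.6 to 22.5), so the crypt share lay within the interval of the erythroid share, while the middle and mature shares lay far above it. Without thinning the shares were 40.02%, 43.2%, 86.0% and 97.3% in rat 1 and 26.3%, 48.1%, 92.9% and 82.5% in rat 2, with 20.8% and 21.8% in erythroid cells, which were shallower (median 5308 and 7361 UMIs, against 13335 and 18474 in crypt cells). The median mature enterocyte held 19 member UMIs of its 5000 in rat 1 (quartiles 10 and 28, highest 85) and 4 in rat 2 (quartiles 0 and 11, highest 35). Middle enterocytes had a median of 5 and 6, and early enterocytes a median of 0 with a highest cell of 19 and 22.

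Relative to the mean, member UMIs varied more from cell to cell in all enterocyte groups than in crypt or erythroid cells. In early enterocytes the variance was 6.02 times the mean in rat 1 and 10.0 times in rat 2. It was 12.7 and 10.6 times in middle and 9.80 and 9.09 times in mature enterocytes. It was 1.44 and 2.35 times in crypt cells and 1.13 and 1.40 times in erythroid cells. In the goblet lineage it was 1.26 and 11.6 times, the latter with 46.9% of the UMIs in 1 cell. This ratio can rise with the mean, which was 0.597 and 1.23 UMIs in early enterocytes and 0.228 and 0.211 in crypt cells. Their top decile of cells held 75.6% of the group's member UMIs in rat 1 and 84.0% in rat 2, and 75.5% and 76.0% of them had none. In mature enterocytes the top decile held 24.1% and 35.5%, and 4.18% and 25.2% had none. Of the mature enterocytes, 75.1% in rat 1 and 28.8% in rat 2 had 10 or more member UMIs. The mature group of rat 2, a range of scores, thus held both cells with none and cells with 10 or more.

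**Figure D3:**
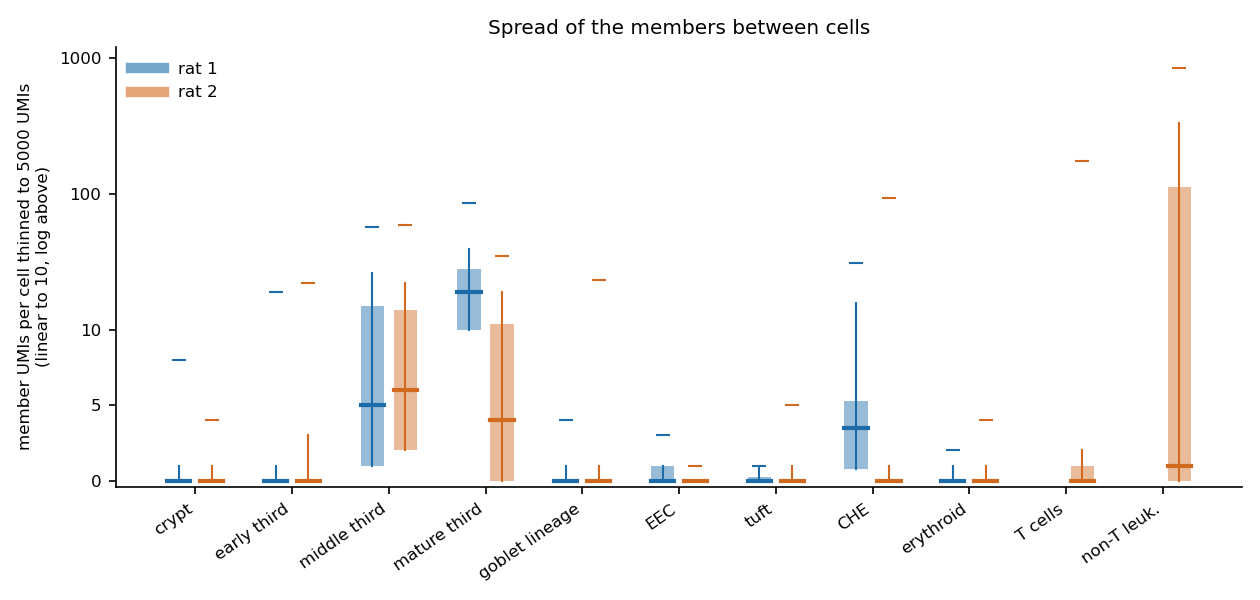
Member UMIs per cell after thinning to 5000 UMIs, by class and rat, on an axis that is linear to 10 and logarithmic above. Boxes give quartiles, thick lines the median, thin lines reach the 90th percentile and ticks mark the highest cell. Mature enterocytes center on 19 UMIs in rat 1 and 4 in rat 2, while crypt, goblet lineage and tuft cells center on 0.

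Secretory cells had class II levels in CPM near those of erythroid cells, apart from CHEs. The summed level of the members was 36.0 CPM in rat 1 and 55.5 CPM in rat 2 in the goblet lineage, 72.2 and 19.2 CPM in EECs and 56.1 and 44.0 CPM in tuft cells, against 52.1 and 52.8 CPM in erythroid cells. Crypt cells, at 44.4 and 36.7 CPM, had 0.851 (0.411 to 2.12) and 0.694 (0.428 to 1.09) of the erythroid level, so in CPM the crypt level was not above that of erythroid cells beyond counting error. Per barcode crypt cells held more, 0.687 and 0.658 member UMIs against 0.292 and 0.406 in erythroid cells, at a larger depth. An unnamed cluster between crypt and enterocytes, led by Gvin1, Pycard and Krt19, was at 45.7 and 66.6 CPM. CHEs, the cells named for high Cftr, stood above that level with 981 CPM (rat 1) and 186 CPM (rat 2), a ratio to erythroid cells of 18.8 (8.72 to 48.3) and 3.51 (2.74 to 4.54). The CHE values rest on few cells. The 8 CHEs of rat 1 held 36, 22, 6, 5, 5, 3, 2 and 0 member UMIs, and without the highest cell the level was 579 CPM. The cell with 22 also held 630 UMIs of enterocyte markers, against 23 to 117 in the others. In rat 2, 1 of 76 CHEs had 93 member UMIs after thinning and 78.9% had none, and without 6 CHEs with 3 or more leukocyte marker UMIs the level fell from 186 to 61.5 CPM.

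Over the secretory classes together, all 6 members tested were called lower than in enterocytes, where 29.2% of all genes were called in either direction, 19.3% lower and 9.88% higher. Cd74 was at -3.60 in rat 1 and -4.75 in rat 2 on the log2 scale, fitted -4.14 (SE 0.48, edgeR adjusted p = 1.40e-05). RT1-Da was fitted at -4.28, RT1-Db1 at -4.04, RT1-Ba at -6.00 and RT1-Bb at -6.80, with edgeR adjusted p from 1.61e-05 to 0.000194. Ciita was fitted at -5.25 (edgeR adjusted p = 0.021) against classes that were mostly at 0, and with DESeq2 it did not pass (-1.33, DESeq2 adjusted p = 0.33). The median over the members was -4.76, against -0.14 over all genes. Under scaling by library totals the median of all genes moved by 0.70, the higher share of calls from 33.9% to 70.4%, and the members' median to -4.21, with Ciita at edgeR adjusted p = 0.066.

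Non-T leukocytes were higher in class II than any enterocyte group. They are leukocytes without a UMI of Cd3d, Cd3e or Cd3g, and other T cell markers were counted in them. The T cell list was at 10203 CPM in this class of rat 2, from Cd2, Cd8a, Gzma and Ccl5, against 15635 CPM in T cells. How these UMIs were spread over the cells of the class was not tested. The non-T leukocytes of rat 2 had 10628 CPM of Cd74, 5657 CPM of RT1-Da, 5169 CPM of RT1-Db1, 3014 CPM of RT1-Ba, 528 CPM of RT1-Bb and 28.4 CPM of Ciita (13 UMIs). Their summed level, 25024 CPM, was 17.6 times (17.1 to 18.1) that of mature and 14.04 times (13.7 to 14.4) that of middle enterocytes of the same rat. The class was uneven: its median cell held 1 member UMI after thinning, its highest 846, and 38.3% held none. Within it, 12 cells with UMIs of myeloid markers held 76.9% of the member UMIs and were at 69187 CPM with 8 UMIs of Ciita, 10 cells with B cell markers at 12341 CPM with 4 UMIs of Ciita, and 37 cells with neither at 5761 CPM. T cells of rat 2 were at 1030.1 CPM, of which Cd74 made up 553 CPM, with 0 UMIs of Ciita. That level came from few cells: after thinning, 55.9% of the 170 T cells held no member UMI, 9 held 10 or more, and 1 cell held 22.2% of the UMIs. In rat 1, 1 cell with myeloid markers was at 31690.1 CPM, and the 3 other non-T leukocytes held no member UMI.

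In the fit, in which the lone leukocyte sample of rat 2 is assumed to vary like the other classes, all 6 members were called higher in non-T leukocytes than in enterocytes, where 24.8% of all genes were called in either direction and 13.8% were called higher. Cd74 was fitted at 3.26 (SE 0.70, edgeR adjusted p = 0.0032), RT1-Da at 3.80, RT1-Db1 at 4.86, RT1-Ba at 3.99, RT1-Bb at 4.07 and Ciita at 3.33 (SE 0.84, edgeR adjusted p = 0.013). The median over the members was 3.89, against -0.35 over all genes. With the rat as a block 4329 genes were called in place of 2755, and all 6 members. Scaling by library totals moved the median of all genes by 1.00 and the higher share of calls from 55.5% to 80.1%. The difference ended under a limit of 20% mitochondrial UMIs, which kept 30 of the 60 cells: Cd74 was then at 588 CPM, Csf1r, a receptor of macrophages, fell from 192 to 0 CPM, and 0 of the 5 members then tested were called (edgeR, 0 at an unadjusted p under 0.05), with a median of -0.34 and 0.65 for RT1-Db1.

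The make-up of the class II transcripts differed between enterocytes and most leukocytes with class II. Counts of different genes were not corrected for how well each transcript end is captured, so that ratios of 2 genes are compared between classes only. For every 100 UMIs of Cd74, RT1-Db1 had 10.8 (8.90 to 13.0) in early, 15.7 (15.0 to 16.4) in middle and 21.7 (21.2 to 22.3) in mature enterocytes of rat 1. In rat 2 it had 14.3 (12.4 to 16.5), 15.7 (14.8 to 16.6) and 16.0 (14.8 to 17.3), and 48.6 (46.3 to 51.1) in non-T leukocytes. The ratio thus rose with maturity beyond counting error in rat 1, changed within the intervals in rat 2, and was highest in leukocytes. RT1-Da had 39.98, 38.2 and 39.7 per 100 Cd74 UMIs in rat 1, 34.8, 36.4 and 30.8 in rat 2 and 53.2 (50.7 to 55.8) in non-T leukocytes. RT1-Ba went from 14.4 to 20.5 in rat 1 and from 14.7 to 17.5 in rat 2, against 28.4 (26.7 to 30.1) in non-T leukocytes. Within that class, the myeloid cells, which held most of its UMIs, were at 58.7 (55.6 to 62.0) for RT1-Da, 53.1 (50.2 to 56.1) for RT1-Db1 and 30.0 (28.0 to 32.1) for RT1-Ba, and the 37 cells with neither marker set were at 47.5, 50.0 and 37.7. The 10 cells with B cell markers were at 32.02 (27.4 to 37.2) for RT1-Da and 14.7 (11.8 to 18.04) for RT1-Ba, in the range of enterocytes, and at 27.8 (23.6 to 32.6) for RT1-Db1. Under a limit of 20% mitochondrial UMIs the non-T leukocytes were at 36.4 (24.6 to 53.04), 34.6 (23.1 to 50.7) and 19.6 (11.7 to 31.5) for RT1-Da, RT1-Db1 and RT1-Ba, from 107 UMIs of Cd74, so that the RT1-Da and RT1-Ba ratios no longer differed from those of enterocytes beyond counting error.

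RT1-Bb set the rats apart more than the cell classes. It had 1.21 (0.659 to 2.04), 1.43 (1.25 to 1.63) and 1.73 (1.59 to 1.88) UMIs per 100 of Cd74 in early, middle and mature enterocytes of rat 1. In rat 2 it had 3.91 (2.99 to 5.03), 4.28 (3.86 to 4.74) and 3.90 (3.35 to 4.51), and 4.97 (4.35 to 5.65) in non-T leukocytes, 1.87 (0.223 to 6.92) under the limit of 20% mitochondrial UMIs. All enterocyte groups of rat 2 lay above all of rat 1, and whether the animals, the libraries or the software versions differ cannot be told apart. As a share of all member UMIs, Cd74 made up 54.4% to 59.5% in the enterocyte groups of both rats and 42.5% in non-T leukocytes.

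**Figure D4:**
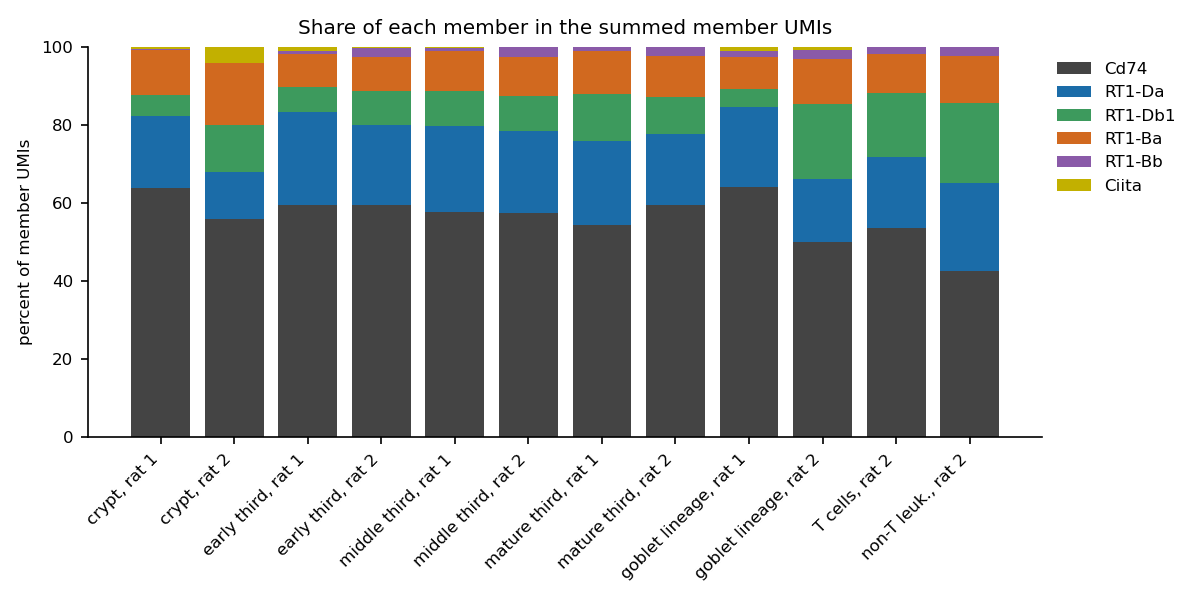
Share of each member among all UMIs of the members, in percent, by cell class and rat. Cd74 makes up 54.4% to 59.5% in enterocytes and 42.5% in non-T leukocytes of rat 2, where RT1-Db1 takes 20.7%.

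UMIs of leukocyte markers were also counted in enterocytes. The leukocyte list (Ptprc, Coro1a, Laptm5, Cd53 and Arhgdib, 5 of 5 with a UMI in each group) summed to 5.44, 5.68 and 4.89 CPM in early, middle and mature enterocytes of rat 1 and 14.4, 15.1 and 14.4 CPM in rat 2. There were 20.3, 303 and 832 member UMIs for each leukocyte list UMI in rat 1 and 16.9, 118 and 98.9 in rat 2, against 6.71 in non-T leukocytes, 16.3 in their myeloid cells and 4.16 in those with B cell markers. The part of leukocyte RNA in the enterocyte levels was not tested. The myeloid list was at 3.42 to 4.48 CPM in rat 1 and 7.68 to 10.2 CPM in rat 2, with 3 to 5 of its 12 genes counted in the groups of rat 1 and 6 to 8 in those of rat 2. Of its dendritic cell genes, Flt3 and Clec9a were at 0 in all enterocyte groups, while Itgax, Xcr1 and Batf3 were at 0 to 0.175 CPM, and the B cell list was at 0 to 0.122 and 0.175 to 1.44 CPM. The T cell list was at 37.5, 27.6 and 29.3 CPM in rat 1 and 30.6, 39.7 and 69.6 CPM in rat 2. The plasma cell list, in these groups UMIs of Xbp1 alone, was at 29.5 CPM in early and 11.7 CPM in mature enterocytes of rat 1 and at 14.7 and 8.06 CPM in rat 2. Without enterocytes that held 3 or more leukocyte UMIs, the members were at 230 CPM in place of 244 in early, 1796 in place of 1782 in middle and 1444 in place of 1422 in mature enterocytes of rat 2. In the crypt class of rat 2, where the leukocyte list was at 333 CPM, and the goblet lineage of rat 2, the same step took the members from 36.7 to 16.2 CPM and from 55.5 to 27.9 CPM.

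Class I genes, whose products present peptides made inside the cell, were read beside the class II members. Between enterocytes and crypt cells, 3 of 13 tested were called higher and 0 lower, where 14.7% of all genes were called higher and 23.1% lower. None of the other lists had a gene called by edgeR between mature and early enterocytes. At an unadjusted p under 0.05 there were 3 of 13 class I genes, 4 of 10 of the class II loading list and 1 of 16 of the interferon list. There were also 1 of 6 genes for costimulatory or inhibitory signals and 0 of 6 promoter factors. DESeq2 called 2 of the class I and 2 of the loading genes. B2m, the light chain of class I molecules, went from 1188 CPM in crypt cells to 3171 CPM in early and 10320.4 CPM in mature enterocytes of rat 1, and from 1493 to 4631 and 8558 CPM in rat 2. It was fitted at 3.25 above crypt cells (edgeR adjusted p = 0.0046), beside RT1-A1, a class I heavy chain, at 2.80 (edgeR adjusted p = 0.046) and the peptide-loading helper Tapbp at 1.98 (edgeR adjusted p = 0.0038). B2m rose by less than Cd74 and did not come down in mature enterocytes of rat 2. With the rat as a block, 3 class I genes were called higher in mature than in early enterocytes (B2m at 1.96, Tapbp at 1.70 and RT1-A1 at 1.62) and 1 lower (Pdia3, a chaperone of the peptide-loading complex, at -1.35). In the same blocked fit 4 loading genes, Socs1 and the costimulatory gene Cd86 were called higher.

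The loading list holds genes that prepare class II molecules for peptide and others, among them March8 and Cd9. Of its 10 genes tested, 3 were called higher in enterocytes than in crypt cells and 1 lower. Together this is a share near the 37.9% of all genes called in either direction. Ctss, the protease that trims the invariant chain, was at 9.57 CPM (rat 1) and 10.3 CPM (rat 2) in crypt cells and at 32.0 and 43.3 CPM in mature enterocytes, fitted 3.03 (edgeR adjusted p = 0.0039). It was already at 32.3 and 48.6 CPM in early enterocytes, so that its step lay before that of Cd74. March8, a ligase that removes class II from the surface, was fitted at 2.29 (edgeR adjusted p = 0.038) and the protease Ctsb at 2.13 (edgeR adjusted p = 0.039). Cd9, a tetraspanin, was fitted at -3.42 (edgeR adjusted p = 0.0061) and was at 4.33 CPM in crypt cells of rat 1 against 109 CPM in rat 2.

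Of 6 factors tested that bind the shared promoter boxes, 0 were called higher in enterocytes than in crypt cells and 1 lower (edgeR), where 23.1% of all genes were called lower. At an unadjusted p under 0.05 there were 2, DESeq2 called 2, and with the rat as a block Nfya and Nfyb were both called lower. Nfyb, a subunit of the factor that binds the Y box, fell from 54.1 CPM in rat 1 and 58.7 CPM in rat 2 in crypt cells to 10.9 and 4.03 CPM in mature enterocytes, fitted -1.38 for all enterocytes (edgeR adjusted p = 0.020). Its partners Nfya and Nfyc were fitted at -1.17 (edgeR adjusted p = 0.080) and 0.42 (edgeR adjusted p = 0.45). Rfx5 and Rfxank, subunits of the factor that binds the X box, were fitted at 0.51 (edgeR adjusted p = 0.54) and 0.68 (edgeR adjusted p = 0.32), and Creb1 at -0.89 (edgeR adjusted p = 0.31). With libraries scaled by their totals, Nfyc, Rfx5 and Rfxank turned negative (-0.61, -0.43 and -0.27) and Creb1, Nfya and Nfyb were called lower, while class I and interferon calls went from 3 to 1 and from 6 to 3 higher, with Gbp5 called lower. Rfx5 was at 6.87 CPM in crypt cells and 6.38 CPM in mature enterocytes of rat 1, and at 10.3 and 2.81 CPM in rat 2. Rfxap was at 0 to 0.113 CPM in these classes and was not tested.

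Of 16 genes tested of the response to interferon gamma, which is known to switch on Ciita, 6 were called higher in enterocytes than in crypt cells and 0 lower. Over all genes 14.7% were called higher and 23.1% lower. In either direction the list's share was near the 37.9% of all genes. The chemokine Cxcl11 was fitted at 3.73 (edgeR adjusted p = 0.0087), the inhibitor Socs1 at 3.34 (edgeR adjusted p = 0.0019), Irf9 at 2.51 (edgeR adjusted p = 0.0052), the receptor chain Ifngr1 at 2.05 (edgeR adjusted p = 0.028) and the GTPase Ifi47 at 1.71 (edgeR adjusted p = 0.040). Socs1 was at 2.20 CPM in crypt cells of rat 1 and was at 3.96 CPM in early and 17.2 CPM in mature enterocytes. In rat 2 it was at 1.47 CPM in crypt cells and at 8.47, 21.7 and 13.0 CPM in the enterocyte groups. Socs1 was thus highest in mature enterocytes of rat 1 and in middle enterocytes of rat 2, as Cd74 was. Cxcl11 was at 6.12, 20.9 and 28.8 CPM in rat 1 and 12.7, 10.1 and 4.91 CPM in rat 2, opposite courses in the 2 animals. The medians of the lists against crypt cells were 0.80 for class I, 0.23 for loading, -0.24 for promoter factors and 0.90 for the interferon list, against 5.56 for the members.

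Genes for the signals that accompany antigen were low in enterocytes, apart from Cd86 in rat 2. Cd86, a ligand of CD28, was at 0.566, 0.428 and 0.543 CPM in early, middle and mature enterocytes of rat 1, and at 0.0901, 0.565 and 11.6 CPM in rat 2, where non-T leukocytes were at 8.72 CPM. It differed between mature and early enterocytes by 0.30 in rat 1 and 5.52 in rat 2, fitted 4.91 (edgeR adjusted p = 0.13). None of 6 genes for such signals tested was called against crypt cells (edgeR and DESeq2, 0 at an unadjusted p under 0.05). The 6 are not all costimulatory, since Cd274 and Pdcd1lg2 encode inhibitory ligands. Cd80, the other ligand of CD28, was at 0 in middle and mature enterocytes of both rats and at 39.3 CPM in non-T leukocytes. In non-T leukocytes 5 of 6 were called higher than in enterocytes, where 13.8% of all genes were: Cd80, Cd40, Cd274, Icoslg and Pdcd1lg2, named because they are the whole count. The chains RT1-DOa, RT1-DOb and RT1-Db2 were all called higher there too, with RT1-DOb, a chain of the DM inhibitor of B cells, at 32.7 CPM against 0 in all enterocyte groups. RT1-DOa was at 11.6, 14.9 and 11.7 CPM in early, middle and mature enterocytes of rat 1 and at 7.75, 7.68 and 2.45 CPM in rat 2, with no rise alongside the classical chains. In secretory cells, 8 of 13 class I genes and 7 of 16 interferon genes were called lower than in enterocytes and 0 higher, where 19.3% of all genes were called lower and 9.88% higher. Under scaling by library totals 3 class I genes and 4 interferon genes were called lower and 0 and 1 higher.

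Over the class sums of each rat, the genes whose log2(CPM + 1) ran most like the summed members were Slc15a3 (r = 0.82 over 9 classes of rat 1 and 0.86 over 11 classes of rat 2), Birc3 (0.82 and 0.84), RT1-Db2 (0.82 and 0.78), Lpar3 (0.82 and 0.77) and Tnfaip8l2 (0.81 and 0.76). These are descriptions, since the classes of a rat share a library, and all 5 genes were counted far less than Cd74. Lpar3, a receptor for lysophosphatidic acid, was at 0.510, 5.01 and 15.4 CPM in early, middle and mature enterocytes of rat 1 and at 0.270, 3.73 and 26.5 CPM in rat 2. It rose to the mature group in both rats, where the class II members of rat 2 had come down. Slc15a3, a transporter of peptides and histidine in endosomes, was at 0.227, 0.856 and 2.31 CPM in rat 1 and 0.450, 1.81 and 1.40 CPM in rat 2, with 48.0 CPM in non-T leukocytes.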

How the data were processed

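The authors deposited raw UMI counts per gene and barcode for each rat, made with Cell Ranger (the file headers give 3.1.0 in rat 1 and 5.0.1 in rat 2) against rn6 per the labels and limited to barcodes called as cells. Cells with over 5000 UMIs, at most 40% mitochondrial UMIs and 200 to 5800 genes were integrated across rats and then clustered (R 4.3.3, Seurat 5.3.0, 2000 variable genes without the presentation genes, 20 components). Clusters were named from fixed markers at levels set after they were seen, so differences from the study may come from rebuilt names. Leukocytes with over 10 epithelial UMIs and epithelial-cluster cells with 10 or fewer were left out, 3 unnamed clusters (1 between crypt and enterocytes, 1 led by Apoa4 and Apoa1 beside goblet genes, and 1 of enterocytes with hemoglobin) and 9 erythroid barcodes with over 10 epithelial UMIs entered no comparison, and doublets were not otherwise removed.

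Raw counts were summed per rat and class with at least 5 cells and fitted with edgeR 4.0.16 (TMM, the filterByExpr filter, quasi-likelihood test, Benjamini-Hochberg adjustment over all genes, threshold 0.05) in 1 model over all classes. Fold changes per rat are on the scale of that fit and carry no test. The sums of a rat share the animal and are thus paired: between-rat differences correlated over the 36 pairs of 9 classes with a median r of 0.24 (range 0.068 to 0.77). The study names no such test, so the rat is a block in an alternative only. With 2 rats, p-values measure the spread between these animals. Motifs were searched in RefSeq promoters. The script was tested on simulated data.

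The members and lists were chosen with earlier results of these data known. Of 169 list genes 164 matched the files. Named are the members, all promoter factors, per list up to 5 called genes with the largest change and 1 direction in both rats, and the 5 genes most like the summed members. Alternatives were no limits on genes, 20% mitochondrial UMIs, no integration, assignment by marker UMIs, another villus score, common cuts, removal of epithelial cells with immune UMIs, DESeq2 1.42.0, no filter on low counts, no mitochondrial genes, each rat left out and no thinning. Keeping mixed leukocyte barcodes, removing epithelial cells with 3 or more leukocyte UMIs and scaling by library totals were added after seeing the data. So was limiting the crypt class to clusters led by cycling markers.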

Additional observations from a re-analysis of the deposited data

Results flagged for a closer look

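Class II transcripts were also counted in barcodes that no comparison used, at levels above those of erythroid cells (52.1 CPM in rat 1 and 52.8 CPM in rat 2), which is why they are listed here. Barcodes left out only by the limits on genes are not among them. Barcodes with 5000 or fewer UMIs held 618 CPM of the members in rat 1 (5816 barcodes) and 2976 CPM in rat 2 (4439 barcodes). Barcodes with over 5000 UMIs and over 40% mitochondrial UMIs held 439 CPM in rat 1 (182) and 502 CPM in rat 2 (1510). In leukocyte clusters, barcodes that also had more than 10 epithelial UMIs were at 1348 CPM in rat 1 (174) and had 1312 CPM in rat 2 (68), between early and mature enterocytes. Barcodes of epithelial clusters in rat 2 with 10 or fewer epithelial UMIs were at 2639 CPM (104). The leukocyte classes of rat 1, each with 4 cells and so left out of the fit, were at 256 CPM (93.8 to 556) for T cells and 7513 CPM (6400 to 8763) for non-T leukocytes, the latter from a single cell. The unnamed cluster led by Apoa4 and Apoa1 was at 811 CPM in rat 1 (101 cells) and had 566 CPM in rat 2 (43), and the cluster of enterocytes with hemoglobin was at 1772 CPM in rat 1 (34) and had 797 CPM in rat 2 (18). Barcodes of the erythroid cluster with over 10 epithelial UMIs were at 134 CPM in rat 1 (4) and had 1125 CPM in rat 2 (5).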

How the results depend on the processing

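In all alternatives that gave a value, Cd74, RT1-Da, RT1-Db1, RT1-Ba and RT1-Bb stayed higher in mature than in early enterocytes and in enterocytes than in crypt cells, and lower in secretory cells. The number of genes called between mature and early enterocytes was 28, and 98 with a limit of 20% mitochondrial UMIs, 425 without integration, 0 with cells assigned by marker UMIs (edgeR), 213 with common cuts, 188 without epithelial cells that had immune UMIs, 77 without those that had 3 or more leukocyte UMIs, 596 with DESeq2, 861 without a filter on low counts, 2029 with the replicate block and 0 with library sizes without TMM. Members called there were 5 of 6 under the mitochondrial limit, without integration, with common cuts, DESeq2, no filter and the block, 4 with another villus score and without immune UMIs, and 0 with marker UMIs, with mixed barcodes kept as leukocytes and without TMM (edgeR, with 5 members at an unadjusted p under 0.05 in each). Their median was 6.50 under the mitochondrial limit, and with either rat left out it was 3.27 and 5.59. The cause was not tested.

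Without epithelial cells that had immune UMIs, 2145 genes were called against crypt cells and 1794 in secretory cells, where fewer cells were summed. The members' median against crypt cells was 4.65 without TMM and 4.74 to 5.59 with a rat left out. In secretory cells it was -3.31 with marker UMIs, -6.97 without immune UMIs, -3.99 with mixed barcodes kept, -3.65 with DESeq2 and -4.85 to -3.84 with a rat left out. For non-T leukocytes 4192 genes were called without integration, 1168 with mixed barcodes kept and 4329 with the replicate block. At most 20% mitochondrial UMIs turned that comparison around, with 0 of 5 members called (edgeR), a median of -0.34, Cd74 at -0.34, RT1-Da at -0.46, RT1-Ba at -0.23 and RT1-Bb at -0.63, from 30 cells.

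Beside the calls given with the results, the replicate block changed no other member's call. Without thinning the shares of cells with a member UMI were 40.02% (crypt), 43.2%, 86.0% and 97.3% in rat 1 and 48.1%, 92.9% and 82.5% in rat 2. Depth limits Ciita, with 150 UMIs over all classes summed, and both DM genes, and 38 crypt cells carry the crypt values of rat 2.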

Other observations

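When the classes were limited to the 8 epithelial ones, a step chosen after the first ranking had been seen, other genes ran closest to the summed members: Acot12, AABR07057436.1, Mfap2, Ncoa4 and Pck1, with Acot12 at r = 0.97 in rat 1 and 0.96 in rat 2. Acot12, an enzyme that releases acetate from acetyl-CoA, was at 5.44, 22.2 and 64.6 CPM in early, middle and mature enterocytes of rat 1 and at 6.03, 25.5 and 29.3 CPM in rat 2. It was at 1.91 CPM in crypt cells of rat 1 and 0 in those of rat 2. The classes of a rat share a library, and nothing about shared control follows from the likeness.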
